A study of Bubalus bubalis with 6 samples.

Results

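Interferon-stimulated and viral sensing genes are the genes through which a cell detects viral RNA or DNA, passes that signal on to interferon and arms itself against virus. They were followed here in buffalo (Bubalus bubalis) cells that the labels call intramuscular adipocytes. The genes were chosen by name, from a list of 44 symbols, and 35 gene models carried one of these names, 1 model for each matched name, out of 19476 models in all. No model was matched by name for IFI6, MX2, OAS1, RIGI, DDX58, IRF7, IRF9, USP18 and CXCL10, so these 9 names are absent from the 35. Protein entries were searched for DDX58, the older symbol of RIGI, and the models found are described below. The other unmatched genes were not searched for by protein entry and were not analysed here.

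Both groups of 3 samples received an adenovirus. The controls, labelled WT, received Ad_EGFP, which carries a green fluorescent protein, and the other group, labelled lncFABP4 overexpress, received Ad_ lncFABP4, which carries a long non-coding RNA. In both groups the medium was exchanged 3 hours after the virus was added, an adipogenic inducing medium was given 48 hours after transduction, and polyadenylated RNA was taken after 48 hours of induction, on day 4. The labels do not give the virus dose of either group in numbers, so the inserted sequence and the amount of virus cannot be told apart in any difference below. No sample without virus is among the 6, so the level of these genes in the absence of adenovirus was not analysed here. Wells were plated in triplicate and no label ties a replicate to its own animal or culture, so every p-value below reflects the variation among these 6 samples and that variation could be technical.

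RNA of a virus is detected in the cytoplasm by the helicases RIG-I and MDA5, which signal through MAVS on mitochondria, and DNA by cGAS, which signals through STING. Both routes activate the transcription factor IRF3 and the production of type I interferon. Interferon binds the receptor chains IFNAR1 and IFNAR2, the kinases JAK1 and TYK2 then activate transcription factors that enter the nucleus and switch on a large set of target genes, the interferon-stimulated genes. Adenovirus is a DNA virus, and vectors made from it are known to engage these sensors in some cells.

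Levels are in FPKM, fragments scaled to model length and to the mapped fragments of the library, and the number of reads behind a value is unknown. Column totals ranged from 340165 to 360920 FPKM over the 6 samples. No model is named for the lncFABP4 RNA, so the overexpression label was not checked on the inserted sequence. The model of FABP4, the fatty acid binding protein gene in the name of that RNA, ranged from 149 to 197 FPKM after EGFP and from 6505 to 12003 FPKM after lncFABP4. The adipocyte markers gave a divided picture. PPARG, the main transcription factor of fat cells, rose from 12.2 ± 0.527 to 25.2 ± 1.77 FPKM (SD, n = 3; limma adjusted p = 0.000321). LPL, the gene of lipoprotein lipase, fell from 2.78 ± 0.710 to 0.999 ± 0.160 FPKM (SD, n = 3; limma adjusted p = 0.00349), and CIDEC, a lipid droplet protein, held 1.95 to 2.22 FPKM after EGFP and 2.27 to 2.68 FPKM after lncFABP4 and was not called. CEBPA reached at most 0.190 FPKM and ADIPOQ, the adiponectin gene, at most 0.0559 FPKM.

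The levels of the 35 genes spanned a wide range. The IFIT proteins IFIT3 and IFIT5, the receptor chain IFNAR1 and the factor IRF3 were the most abundant, the 4 genes with a mean of at least 20 FPKM over the 6 samples. A further 8 genes had a mean of 5 to 20 FPKM (IFNAR2, MX1, ZNFX1, MAVS, HERC6, EIF2AK2, STAT2 and STING1), and 13 lay between 1 and 5 FPKM. Of the 35, 25 reached 1 FPKM in at least 3 of the 6 samples and were tested, and 10 did not. The 25 had a median level of 4.75 FPKM, against 9.35 FPKM for all 11064 models that passed this minimum.

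**Figure D1:**
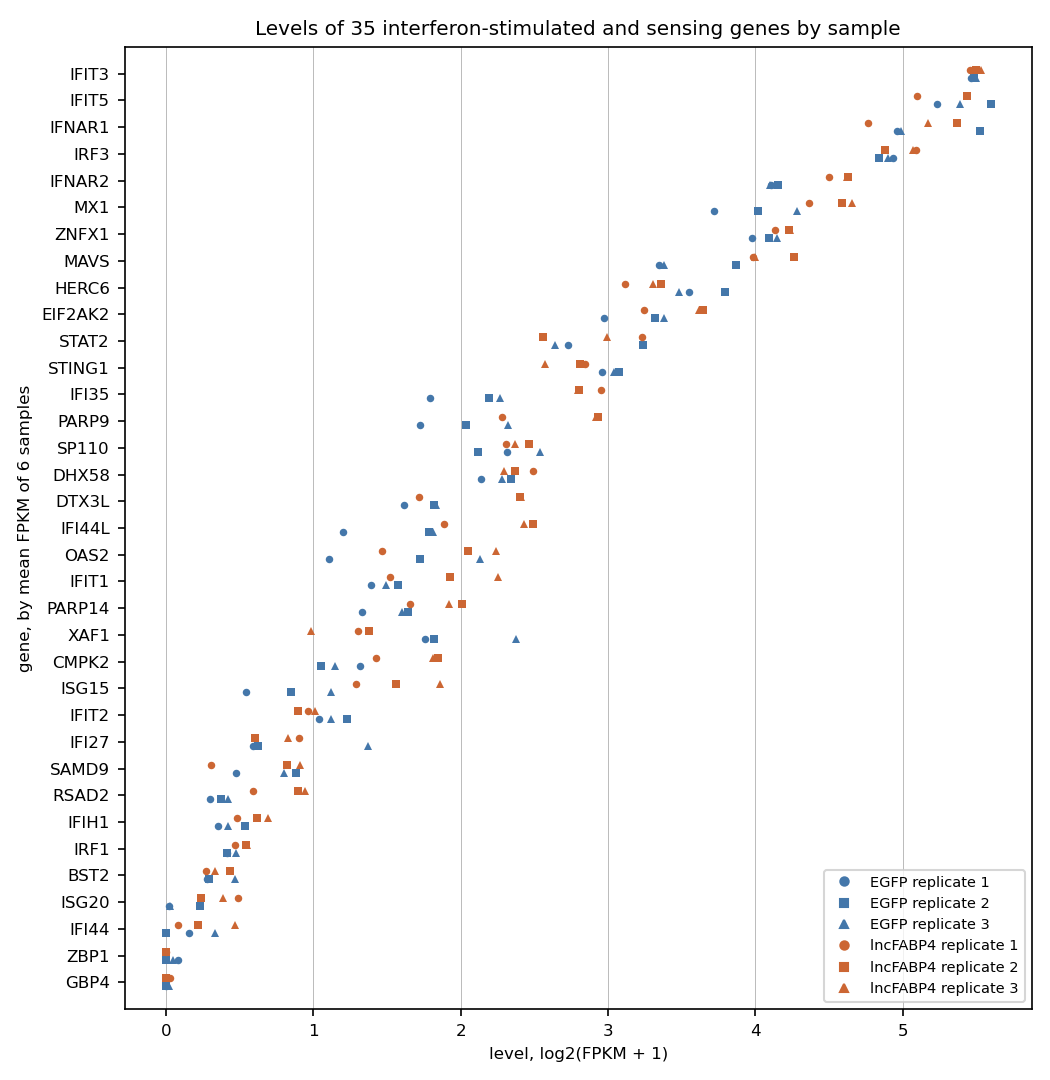
Level of each of the 35 genes in each sample as log2(FPKM + 1) on the x axis, with the genes ordered by their mean over the 6 samples on the y axis. Blue points are EGFP and orange points lncFABP4 samples, and the shape gives the replicate number. IFIT3 is at the top with 42.8 to 45.2 FPKM in all samples, and GBP4 at the bottom with 0 to 0.0213 FPKM.

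Of the 25 tested genes, 8 rose after lncFABP4 transduction, 2 fell and 15 were not called. The test was limma on log2(FPKM + 1), lncFABP4 minus EGFP, adjusted over all 11064 models at a threshold of 0.05. All log2 changes below are on that scale, which understates the change of low genes, and each is given with its standard error (SE). Among all tested models 16.5% rose, 10.2% fell and 26.7% were called in either direction, against 32% higher, 8% lower and 40% in all among the 25. The genes that rose were IFNAR2, IFI35, ISG15, CMPK2, MX1, MAVS, PARP9 and IFI44L, by 1.40-fold to 2.47-fold on the means, and those that fell were XAF1 and HERC6. The median log2 change of the 25 was 0.26, and that of all tested models 0.05. Without EGFP replicate 1 the median of the 25 was 0.14, without lncFABP4 replicate 1 it was 0.41, and the other libraries gave values between 0.18 and 0.36. In 19 of the 25 the log2 change was above 0, against 56.6% of all models. For 12 of the 25 genes the groups were fully apart, 8 higher and 4 lower after lncFABP4, against 43.9% of all models (26.6% higher and 17.2% lower). Among these, ISG15, XAF1 and IFIT2 could pass the minimum through the samples of a single group.

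These counts depended on single libraries. The number of these genes called higher was 3 without EGFP replicate 1 or 2, 5 without EGFP replicate 3, and 2 without lncFABP4 replicate 2 or 3. It was 11 without lncFABP4 replicate 1. Over all models 1827 were higher with all libraries, and 1177, 1700 and 1153 without EGFP replicate 1, 2 and 3. Without lncFABP4 replicate 1, 2 and 3 the all-model number was 1974, 1091 and 991. IFNAR2 and IFI35 were the 2 of the 10 genes whose call was kept whichever single library was left out. Without the minimum of 1 FPKM, which brings 19476 models into the test, the calls of the other 8 were lost and RSAD2 was called. Scaling moved the balance of calls: with median-of-ratios factors 6 of these genes were higher and 3 lower (66.7% higher, against 80%), and 48.5% of all calls were higher, against 61.8% with the values as deposited.

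**Figure D2:**
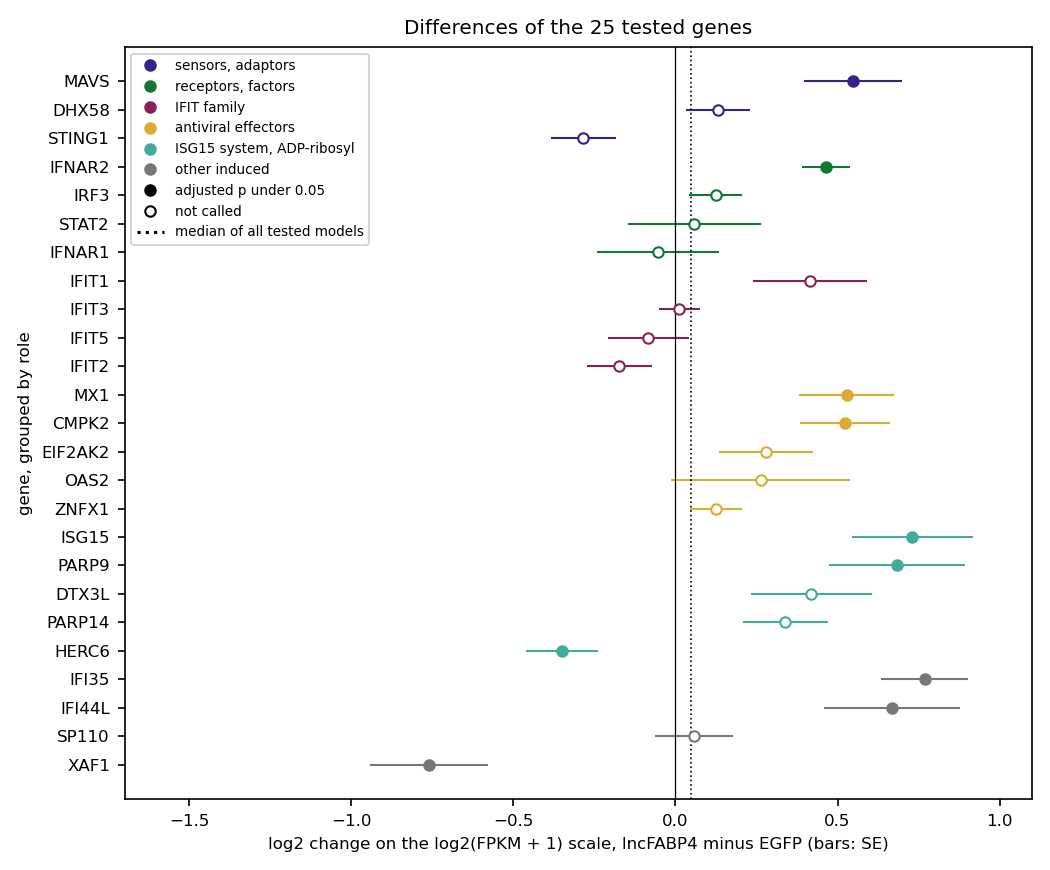
Log2 change (lncFABP4 minus EGFP, on the log2(FPKM + 1) scale, x axis) of the 25 tested genes, grouped by role on the y axis, with bars for the SE. Filled points are genes with a limma adjusted p under 0.05, and the dotted line is the median of all tested models at 0.05. XAF1 is farthest to the left at -0.76 and IFI35 farthest to the right at 0.77.

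Among the sensors and adaptors, MAVS was higher after lncFABP4, and neither LGP2 nor STING passed the test. MAVS (evm.model.chr15.253), the mitochondrial adaptor of RIG-I and MDA5, held 9.19, 13.6 and 9.39 FPKM after EGFP and 14.8, 18.1 and 14.9 FPKM after lncFABP4. All lncFABP4 samples were above all EGFP samples, although EGFP replicate 2 came close to the lowest of them. MAVS rose 1.49-fold, from 10.7 ± 2.49 to 16.0 ± 1.89 FPKM (SD, n = 3 each; log2 change 0.55, SE 0.15, limma adjusted p = 0.0299). Leaving out EGFP replicate 1 or 3 or lncFABP4 replicate 2 or 3 ended this call (limma adjusted p from 0.0628 to 0.101).

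STING1, which encodes the membrane adaptor STING of the DNA sensor cGAS, stood at 6.76, 7.44 and 7.24 FPKM after EGFP and at 6.17, 6.02 and 4.94 FPKM after lncFABP4. The groups did not overlap, with lower values after lncFABP4, but the difference was not called (log2 change -0.28, SE 0.10, limma adjusted p = 0.0679). It was called with TMM and with median-of-ratios factors (adjusted p = 0.0465 and 0.0390) and without lncFABP4 replicate 1 (0.0477). DHX58, the gene of LGP2, a helicase that modulates RIG-I and MDA5, held 3.41 to 4.07 FPKM after EGFP and 3.90 to 4.63 FPKM after lncFABP4, and the groups overlapped (log2 change 0.13, SE 0.10, limma adjusted p = 0.348). The RNA sensor MDA5, gene IFIH1, was under the minimum, with 0.278, 0.451 and 0.340 FPKM after EGFP and 0.401, 0.533 and 0.618 FPKM after lncFABP4. ZBP1, a sensor of Z-form nucleic acid, was listed at 0.0580, 0 and 0.0361 FPKM after EGFP and at 0 in all lncFABP4 samples.

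A model without a gene name, evm.model.chr3.1409, has the protein entry of pig DDX58, the older symbol of the RIG-I gene, and so is not among the 35. It held 3.57, 5.48 and 3.95 FPKM after EGFP and 4.09, 5.46 and 6.01 FPKM after lncFABP4, with overlapping groups (log2 change 0.22, SE 0.16, limma adjusted p = 0.352). A neighbouring model with the same entry reached at most 0.140 FPKM.

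Of the receptor chains of type I interferon, IFNAR2 rose and IFNAR1 was not called. IFNAR2 (evm.model.chr1.286), the chain that binds interferon most tightly, held 16.2, 16.8 and 16.1 FPKM after EGFP and 21.6, 23.8 and 23.7 FPKM after lncFABP4. The groups were well separated, with little spread inside either. IFNAR2 rose 1.40-fold, from 16.4 ± 0.349 to 23.0 ± 1.23 FPKM (SD, n = 3; log2 change 0.47, SE 0.07, limma adjusted p = 0.00354), the smallest adjusted p of the 25 genes. Its partner IFNAR1 held 30.2, 44.9 and 30.8 FPKM after EGFP and 26.2, 40.3 and 35.1 FPKM after lncFABP4. Replicate 2 was the highest in both groups and the groups overlapped (log2 change -0.05, SE 0.19, limma adjusted p = 0.848). Whether the changes of the 2 chains differ from each other was not tested.

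Transcription factors of the pathway were not called. IRF3, which is activated downstream of MAVS and STING, held 29.6, 27.6 and 28.9 FPKM after EGFP and 33.1, 28.5 and 32.6 FPKM after lncFABP4 (log2 change 0.12, SE 0.08, limma adjusted p = 0.287). STAT2, a transcription factor of the response to type I interferon, ranged from 5.25 to 8.42 FPKM after EGFP and from 4.88 to 8.39 FPKM after lncFABP4, so that both groups covered the same range (log2 change 0.06, SE 0.20, limma adjusted p = 0.851). IRF1, an interferon-induced factor, was under the minimum at 0.333 to 0.393 FPKM after EGFP and 0.382 to 0.467 FPKM after lncFABP4.

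IFIT proteins bind viral RNA, in part by its 5′ end, and hinder its translation. None of the 4 IFIT genes was called by limma (at an unadjusted p under 0.05, 1 was higher and 0 lower), and they differed more from each other in level than between the groups. IFIT3 held 43.1, 43.8 and 44.1 FPKM after EGFP and 42.8, 44.1 and 45.2 FPKM after lncFABP4. The 6 values lay close together (log2 change 0.01, SE 0.06, limma adjusted p = 0.903), and the sign turned with each of the other scalings. IFIT5 held 36.6, 47.4 and 40.9 FPKM after EGFP and 33.3, 42.3 and 42.2 FPKM after lncFABP4, and the groups overlapped (log2 change -0.08, SE 0.12, limma adjusted p = 0.647).

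IFIT1 and IFIT2 were far lower. IFIT1 held 1.62, 1.98 and 1.81 FPKM after EGFP and 1.87, 2.80 and 3.77 FPKM after lncFABP4. Its lowest lncFABP4 sample, replicate 1, lay within the EGFP range (log2 change 0.42, SE 0.17, limma adjusted p = 0.114), and without that library the gene was called (adjusted p = 0.0139). IFIT2 held 1.06, 1.35 and 1.17 FPKM after EGFP and 0.955, 0.861 and 1.02 FPKM after lncFABP4, without overlap and with lower values after lncFABP4 (log2 change -0.17, SE 0.10, limma adjusted p = 0.230). The EGFP samples of IFIT2 alone were enough to pass the minimum. The 4 genes lie next to each other in the authors' numbering, from evm.model.chr23.42 (IFIT2) through IFIT3 and IFIT1 to evm.model.chr23.45 (IFIT5). Genes of this family resemble each other, so their reads can be shared.

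Of the antiviral effectors, MX1 and CMPK2 rose and the others that were tested were not called. MX1 (evm.model.chr1.928), a dynamin-like GTPase that traps viral nucleocapsids, held 12.1, 15.2 and 18.5 FPKM after EGFP and 19.6, 23.0 and 24.3 FPKM after lncFABP4. The highest EGFP sample was just under the lowest lncFABP4 sample. MX1 rose 1.46-fold, from 15.3 ± 3.15 to 22.3 ± 2.44 FPKM (SD, n = 3; log2 change 0.53, SE 0.15, limma adjusted p = 0.0304). Its call was lost without EGFP replicate 1 or 2 or lncFABP4 replicate 2 or 3 (limma adjusted p from 0.0629 to 0.101).

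CMPK2, a mitochondrial nucleotide kinase, held 1.497, 1.07 and 1.22 FPKM after EGFP and 1.69, 2.60 and 2.52 FPKM after lncFABP4. It rose 1.80-fold, from 1.26 ± 0.215 to 2.27 ± 0.504 FPKM (SD, n = 3; log2 change 0.52, SE 0.14, limma adjusted p = 0.0262), a call lost without EGFP replicate 2 or 3 or lncFABP4 replicate 2 or 3 (limma adjusted p from 0.0711 to 0.0931). RSAD2, the gene of viperin, a radical SAM enzyme that makes a chain-terminating nucleotide, is its neighbour, both in the authors' numbering (evm.model.chr10.758 and evm.model.chr10.759) and in RefSeq's gene order for the Murrah buffalo assembly. RSAD2 was under the minimum and was not tested, with 0.229, 0.296 and 0.337 FPKM after EGFP and 0.506, 0.861 and 0.921 FPKM after lncFABP4. All its lncFABP4 values were above all its EGFP values, and without the minimum limma gave it a log2 change of 0.45 (SE 0.10, adjusted p = 0.0372).

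EIF2AK2, the gene of PKR, a kinase that stops translation when it binds double-stranded RNA, held 6.84, 8.99 and 9.39 FPKM after EGFP and 8.48, 11.5 and 11.3 FPKM after lncFABP4. Replicate 1 was the lowest in both groups and the groups overlapped (log2 change 0.28, SE 0.15, limma adjusted p = 0.189). OAS2, which makes the 2-5A signal that activates the nuclease RNase L, held 1.16, 2.31 and 3.38 FPKM after EGFP and 1.77, 3.14 and 3.72 FPKM after lncFABP4. Its values varied more inside the groups than between them (log2 change 0.26, SE 0.28, limma adjusted p = 0.509). ZNFX1, a helicase that senses RNA at mitochondria, held 14.8 to 16.7 FPKM after EGFP and 16.5 to 17.8 FPKM after lncFABP4 (log2 change 0.12, SE 0.08, limma adjusted p = 0.271).

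ISG15 is a ubiquitin-like protein that is joined to other proteins by an enzyme chain of UBA7, UBE2L6 and a ligase, HERC5 in humans and HERC6 in mice. Of these genes ISG15 rose, UBE2L6 and HERC6 fell and UBA7 was not called. HERC5 was also called higher, but it entered the test through the lncFABP4 samples alone. ISG15 (evm.model.chr5.1177) held 0.460, 0.800 and 1.18 FPKM after EGFP and 1.44, 1.95 and 2.63 FPKM after lncFABP4. The groups did not overlap, and only EGFP replicate 3 of its group reached 1 FPKM. ISG15 rose 2.47-fold, the largest fold among the 8 of the 25 genes that rose, from 0.812 ± 0.358 to 2.01 ± 0.598 FPKM (SD, n = 3; log2 change 0.73, SE 0.19, limma adjusted p = 0.0223). Without EGFP replicate 1 or 2 or lncFABP4 replicate 2 or 3 it was not called (limma adjusted p from 0.0519 to 0.0741). Its lncFABP4 samples alone were enough to pass the minimum, and without the minimum ISG15 was not called (limma adjusted p = 0.0621).

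HERC6 (evm.model.chr8.156) held 10.7, 12.9 and 10.2 FPKM after EGFP and 7.65, 9.25 and 8.90 FPKM after lncFABP4, with all lncFABP4 samples below all EGFP samples. It fell from 11.3 ± 1.43 to 8.60 ± 0.841 FPKM (SD, n = 3; log2 change -0.35, SE 0.11, limma adjusted p = 0.0496), a call at the edge of the threshold that was lost whichever of the 6 libraries was left out (adjusted p from 0.0611 to 0.113). HERC5 is not among the 35, and its model is next to that of HERC6 in the authors' numbering and in RefSeq's gene order. It held 0.183, 0.471 and 0.715 FPKM after EGFP and 1.34, 2.05 and 1.63 FPKM after lncFABP4, and rose (log2 change 0.88, SE 0.16, limma adjusted p = 0.00602). HERC5 passed the minimum through the lncFABP4 samples alone, so among tested models it had to differ, but it was also called without the minimum (adjusted p = 0.0201). It stayed called without EGFP replicate 1, 2 or 3, and could not be tested without any 1 of the lncFABP4 replicates.

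UBE2L6, the conjugating enzyme for ISG15, held 12.8, 13.2 and 12.5 FPKM after EGFP and 6.95, 5.39 and 5.11 FPKM after lncFABP4. The groups were far apart. UBE2L6 fell from 12.8 ± 0.339 to 5.81 ± 0.995 FPKM (SD, n = 3; log2 change -1.03, SE 0.11, limma adjusted p = 0.000802), and this call was kept whichever library was left out. The activating enzyme gene UBA7 held 4.13, 3.31 and 4.92 FPKM after EGFP and 3.74, 3.29 and 3.36 FPKM after lncFABP4 and was not called (log2 change -0.19, SE 0.13, limma adjusted p = 0.301).

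PARP9, DTX3L and PARP14 encode a group of ADP-ribosylation proteins, in which DTX3L is a ubiquitin ligase that forms a complex with PARP9. Their models follow one another, from evm.model.chr1.508 to evm.model.chr1.510, and RefSeq lists the 3 genes in the same order. PARP9 held 2.30, 3.11 and 3.99 FPKM after EGFP and 3.85, 6.64 and 6.57 FPKM after lncFABP4. DTX3L held 2.07, 2.53 and 2.57 FPKM after EGFP and 2.29, 4.29 and 4.31 FPKM after lncFABP4. PARP14 held 1.52, 2.12 and 2.04 FPKM after EGFP and 2.15, 3.03 and 2.79 FPKM after lncFABP4. In all 3 genes lncFABP4 replicates 2 and 3 were the highest of the 6 samples, and lncFABP4 replicate 1 lay near or within the EGFP range.

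PARP9 rose 1.81-fold (log2 change 0.68, SE 0.21, limma adjusted p = 0.0432), although its groups overlapped, and neither DTX3L (0.42, SE 0.19, adjusted p = 0.131) nor PARP14 (0.34, SE 0.13, adjusted p = 0.0912) was called. Without lncFABP4 replicate 1 both of these were called by limma (adjusted p = 0.00563 for DTX3L and 0.0352 for PARP14). The call of PARP9 was lost without EGFP replicate 1 or 2 or lncFABP4 replicate 2 or 3 (limma adjusted p from 0.0864 to 0.134), and with TMM or median-of-ratios factors (0.05004 and 0.0561).

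**Figure D3:**
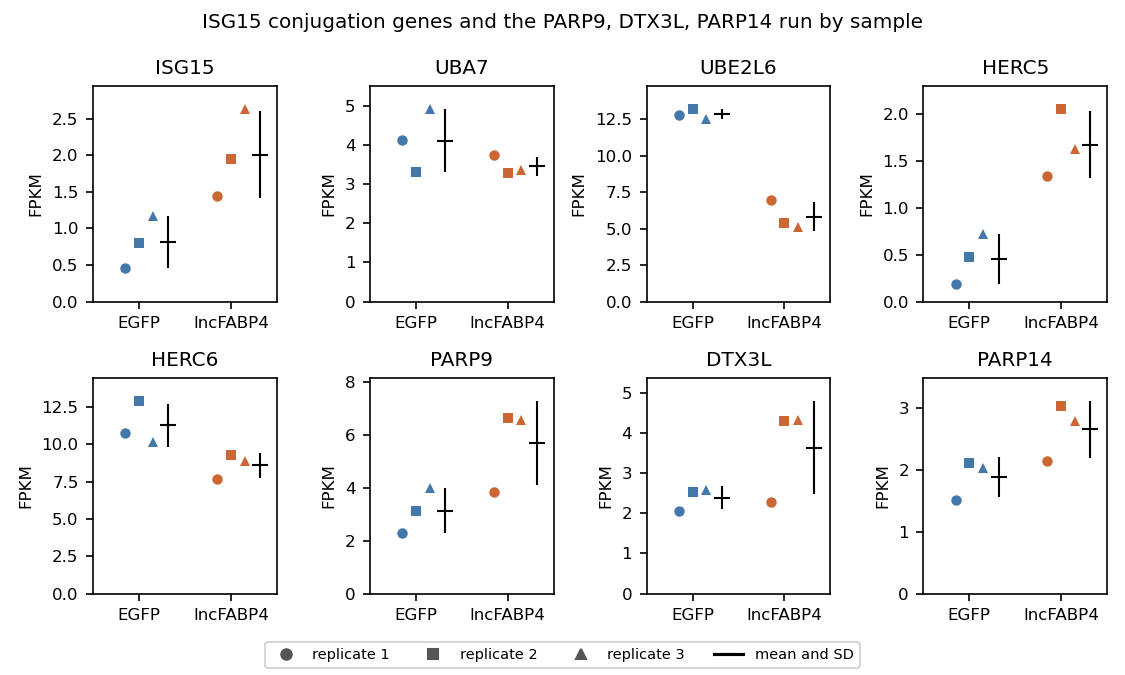
Level in FPKM (y axis, from 0) of ISG15, the enzymes UBA7, UBE2L6, HERC5 and HERC6, and the neighbouring genes PARP9, DTX3L and PARP14 in each EGFP (blue) and lncFABP4 (orange) sample. The shape gives the replicate number, and black bars the mean and SD of 3 samples. ISG15 and HERC5 are higher after lncFABP4 and UBE2L6 and HERC6 lower, without overlap, and in PARP9, DTX3L and PARP14 replicate 1 is the lowest of each group.

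Among the other interferon-induced genes, IFI35 and IFI44L rose and XAF1 fell. IFI35 (evm.model.chr3.467), a protein that associates with the interferon-induced protein NMI, held 2.46, 3.57 and 3.80 FPKM after EGFP and 6.76, 5.96 and 5.96 FPKM after lncFABP4. Its groups were widely separated. IFI35 rose 1.90-fold, from 3.28 ± 0.716 to 6.23 ± 0.461 FPKM (SD, n = 3; log2 change 0.77, SE 0.13, limma adjusted p = 0.00501), and was called whichever library was left out.

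IFI44L (evm.model.chr6.665) held 1.31, 2.45 and 2.52 FPKM after EGFP and 2.70, 4.61 and 4.39 FPKM after lncFABP4. The lowest lncFABP4 sample, replicate 1, was just above the highest EGFP sample. IFI44L rose 1.87-fold (log2 change 0.67, SE 0.21, limma adjusted p = 0.0472), and this call was kept without lncFABP4 replicate 1 only, being lost without EGFP replicate 1, 2 or 3 or lncFABP4 replicate 2 or 3 (adjusted p from 0.0576 to 0.139). Other pseudocounts (0.1 and 0.01) and TMM or median-of-ratios factors ended it too (limma adjusted p from 0.0538 to 0.0607). Its neighbour IFI44 was under the minimum, with 0.115, 0 and 0.261 FPKM after EGFP and 0.0579, 0.163 and 0.382 FPKM after lncFABP4.

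XAF1 (evm.model.chr3.924), which counters the apoptosis inhibitor XIAP, held 2.39, 2.52 and 4.19 FPKM after EGFP and 1.47, 1.59 and 0.983 FPKM after lncFABP4. All lncFABP4 samples were below all EGFP samples, and EGFP replicate 3 stood well above the rest. XAF1 fell from 3.03 ± 1.00 to 1.35 ± 0.324 FPKM (SD, n = 3; log2 change -0.76, SE 0.18, limma adjusted p = 0.0174), a call lost without lncFABP4 replicate 3 (adjusted p = 0.0622). Its EGFP samples alone were enough to pass the minimum, and without the minimum XAF1 was not called (limma adjusted p = 0.0552). SP110, a nuclear body protein, held 3.34 to 4.82 FPKM after EGFP and 3.95 to 4.52 FPKM after lncFABP4 (log2 change 0.06, SE 0.12, limma adjusted p = 0.757).

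**Figure D4:**
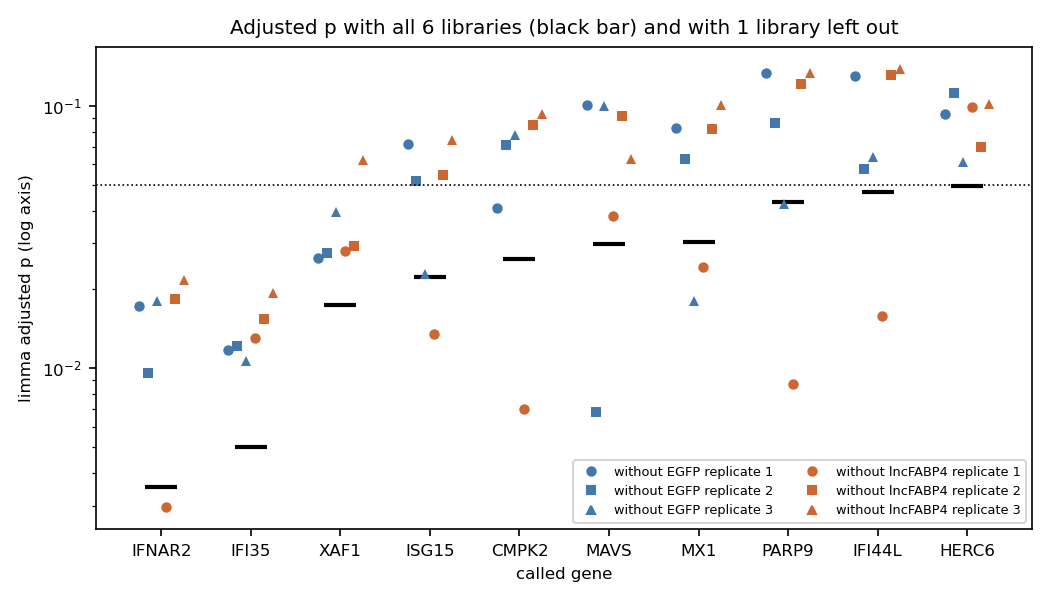
Limma adjusted p (y axis, log scale) of the 10 called genes with all 6 libraries (black bars) and with 1 library left out (points, coloured by the group and shaped by the replicate number of the library left out). The dotted line is the threshold of 0.05. All points of IFNAR2 and IFI35 lie below it, all points of HERC6 above it.

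Several well-known interferon-stimulated genes were close to 0 in both groups. The 10 genes under the minimum were IFIH1, ZBP1, IRF1, RSAD2, ISG20, SAMD9, BST2, GBP4, IFI27 and IFI44. ISG20, an exonuclease, was listed at 0.0151, 0.175 and 0.0212 FPKM after EGFP and at 0.403, 0.179 and 0.312 FPKM after lncFABP4. Its groups did not overlap, although EGFP replicate 2 and lncFABP4 replicate 2 were nearly equal, and without the minimum it was not called (log2 change 0.28, SE 0.08, limma adjusted p = 0.0847). IFI27, a small membrane protein of mitochondria, held 0.503, 0.543 and 1.59 FPKM after EGFP and 0.873, 0.519 and 0.773 FPKM after lncFABP4, so only EGFP replicate 3 reached 1 FPKM. SAMD9 ranged from 0.238 to 0.883 FPKM over the 6 samples, BST2, the gene of the virus tether tetherin, from 0.211 to 0.384 FPKM, and GBP4 from 0 to 0.0213 FPKM. RSAD2 was the 1 gene of these 10 that limma called without the minimum.

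Libraries of the same group differed in these genes in a common way. EGFP replicate 1 was the lowest of its group in 19 of the 25 tested genes (76%), against 34.8% of all tested models. In the other group lncFABP4 replicate 1 was the lowest in 18 of the 25 (72%), against 39.6% of all tested models. The median deviation of the 25 genes from their group mean was -0.14 (log2) in EGFP replicate 1 and -0.15 in lncFABP4 replicate 1, and that of all tested models -0.01 and 0.01. This pattern was noticed after the values had been seen and is given without a test. The labels name nothing that the samples numbered 1 share. Without replicate 1 of both groups, 9 of the 25 were higher and 1 was lower, and over all models 1396 were higher and 903 lower.

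Other genes of the pathway, 114 names in 5 lists, were called about as often as all models. By name 80 were matched, with 88 models, of which 64 were tested. Limma called 9 of the 64 higher and 9 lower, 28% in all against 26.7% of all tested models, with a median log2 change of -0.04. By direction 14.1% were higher and 14.1% lower, against 16.5% and 10.2% of all tested models, and quantile scaling gave 8 higher and 13 lower. Leaving out a single library gave 4 to 10 higher and 5 to 12 lower, the lowest of both without lncFABP4 replicate 3.

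Of 10 tested models of the list of ligands, receptors and JAK-STAT genes, which leaves out IFNAR1, IFNAR2 and STAT2, limma called 0 higher and 2 lower (0 and 4 at an unadjusted p under 0.05). These are shares of 0% and 20%, against 16.5% and 10.2% of all tested models, and the median log2 change was -0.14. The count was 0 higher and 6 lower with quantile scaling, 0 and 4 with median-of-ratios factors, 1 and 4 without lncFABP4 replicate 1, and 0 and 0 without EGFP replicate 3. Without EGFP replicate 1 or 2 or lncFABP4 replicate 3, 1 was lower. JAK1, the kinase bound to IFNAR2 and to the interferon gamma receptor, fell from 74.6 ± 4.19 to 60.4 ± 2.30 FPKM (SD, n = 3; log2 change -0.30, SE 0.07, limma adjusted p = 0.0178). IFNGR1, a chain of the interferon gamma receptor, held 19.4, 20.4 and 22.6 FPKM after EGFP and 7.21, 14.6 and 15.2 FPKM after lncFABP4. It fell by 0.77 on the log2 scale (SE 0.24, limma adjusted p = 0.0451), and lncFABP4 replicate 1 was far below the other samples. The call of JAK1 was lost without EGFP replicate 3 or lncFABP4 replicate 3 (adjusted p = 0.0568 and 0.0770), and that of IFNGR1 without EGFP replicate 1, 2 or 3 (0.0886 to 0.125), without the minimum (0.114) and with a pseudocount of 0.01 (0.0502). TYK2, the kinase bound to IFNAR1, held 4.92 to 5.13 FPKM after EGFP and 5.12 to 5.72 FPKM after lncFABP4 (limma adjusted p = 0.480).

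In the list of sensing adaptors and kinases 3 of 13 tested models were higher and 1 lower (23.1% and 7.69%, against 16.5% and 10.2% of all tested models), with a median log2 change of 0.08. Without EGFP replicate 3 or lncFABP4 replicate 3, 1 was higher and 0 lower, and without EGFP replicate 2 or lncFABP4 replicate 2 also 0 were lower. TRAF3, a ubiquitin ligase that acts between MAVS and the kinase TBK1, held 9.01, 9.55 and 8.37 FPKM after EGFP and 16.4, 15.3 and 16.6 FPKM after lncFABP4. The groups were far apart, and TRAF3 rose 1.80-fold (log2 change 0.78, SE 0.08, limma adjusted p = 0.000725) and was called whichever library was left out. ZC3HAV1, the antiviral protein ZAP that binds CpG-rich RNA, rose 1.60-fold (log2 change 0.66, SE 0.15, limma adjusted p = 0.0144), which was lost without EGFP replicate 3 or lncFABP4 replicate 3 (0.0527 and 0.0522). NLRX1, a mitochondrial protein described as a brake on MAVS, rose by 0.34 (log2, limma adjusted p = 0.0436), a call lost whichever of the 6 libraries was left out (0.0668 to 0.126), without the minimum (0.0837) and with TMM, quantile or median-of-ratios scaling. The endosomal RNA receptor TLR7 fell by 0.43 on the log2 scale (limma adjusted p = 0.0288), a call lost without replicate 2 or 3 of either group (0.0570 to 0.0927) and without the minimum (0.0582).

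Negative regulators had 0 of 8 tested models higher and 3 lower by limma (1 and 3 at an unadjusted p under 0.05). These are shares of 0% and 37.5%, against 16.5% and 10.2% of all tested models, and the median log2 change was -0.17. The number lower was 3 without lncFABP4 replicate 1 and 2 without any other library. SOCS3, an inhibitor of JAK kinases that acts mainly on receptors of the IL-6 type, held 45.7, 39.1 and 49.5 FPKM after EGFP and 25.8, 18.1 and 18.1 FPKM after lncFABP4. It fell from 44.8 ± 5.31 to 20.7 ± 4.40 FPKM (SD, n = 3; log2 change -1.09, SE 0.15, limma adjusted p = 0.00194). IRF2BP2, a corepressor of the factor IRF2, fell by 0.49 on the log2 scale (SE 0.08, limma adjusted p = 0.00492). Both were called whichever library was left out. NLRC5, an activator of MHC class I genes that is also described as a brake on interferon induction, fell by 0.28 on the log2 scale (limma adjusted p = 0.0411). That call was lost without EGFP replicate 1, 2 or 3 or lncFABP4 replicate 2 or 3 (0.0749 to 0.154) and without the minimum (0.0669).

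In the list of other interferon-induced genes, 6 of 28 tested models were higher and 3 lower (21.4% and 10.7%, against 16.5% and 10.2% of all tested models). The median log2 change was 0.05, and 2 of the 6 higher models passed the minimum through the lncFABP4 samples alone. Leaving out lncFABP4 replicate 3 gave 3 higher and 2 lower. Beside UBE2L6 and HERC5, WARS1, a tRNA synthetase that interferon gamma induces, held 34.6, 34.6 and 33.4 FPKM after EGFP and 48.8, 51.4 and 49.5 FPKM after lncFABP4, and rose 1.46-fold (log2 change 0.53, SE 0.06, limma adjusted p = 0.00135). One of 2 models named GBP1, a guanylate-binding GTPase, rose from 1.43 ± 0.162 to 2.62 ± 0.419 FPKM (SD, n = 3; log2 change 0.57, SE 0.11, limma adjusted p = 0.00907), and the other was not called (log2 change -0.05, adjusted p = 0.793). The 2 models can share reads, and their sum was not called (limma adjusted p = 0.0548). For antigen presentation and the immunoproteasome, limma called 0 of 5 tested models higher and 0 lower (1 and 0 at an unadjusted p under 0.05). These are shares of 0% and 0%, against 16.5% and 10.2% of all tested models.

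Leukocytes and endothelial cells express many of these genes, and their markers were mostly near 0. Of 9 leukocyte markers 7 were matched, and their summed level was 17.5 to 20.2 FPKM after EGFP and 14.0 to 16.7 FPKM after lncFABP4. Nearly all of it came from CD68 (8.42 to 10.6 FPKM over all samples) and CD163 (8.74 to 9.35 FPKM after EGFP and 4.97 to 7.45 FPKM after lncFABP4). CD163 was called lower after lncFABP4 (limma adjusted p = 0.0177), and CD68 was not called (0.576). PTPRC, the gene of the pan-leukocyte protein CD45, reached at most 0.0113 FPKM and was listed at 0 in 2 of the 3 lncFABP4 samples, and MS4A1 was at 0 in all but 1 sample. The 5 endothelial markers summed to 3.11 to 3.52 FPKM after EGFP and 4.39 to 4.63 FPKM after lncFABP4, nearly all of it VWF, and PECAM1 was at 0 in all EGFP samples and reached 0.0191 FPKM. VWF rose from 3.05 ± 0.174 to 4.12 ± 0.134 FPKM (SD, n = 3; limma adjusted p = 0.0218). The 5 stromal markers that were matched summed to 8032 to 8610 FPKM after EGFP and 5178 to 5662 FPKM after lncFABP4. Of 7 skeletal muscle markers 4 were matched, with a summed level of 4.34 to 5.00 FPKM after EGFP and 2.14 to 2.98 FPKM after lncFABP4. DES, the gene of desmin, fell from 3.03 ± 0.600 to 1.60 ± 0.186 FPKM (SD, n = 3; limma adjusted p = 0.00907), and MYH3, an embryonic myosin, from 1.31 ± 0.187 to 0.683 ± 0.146 FPKM (SD, n = 3; limma adjusted p = 0.0196). MYH3 passed the minimum of 1 FPKM through the EGFP samples alone, so among tested models it had to differ. The part of these markers in the differences above was not tested, and in bulk RNA fewer cells of a type and less RNA per cell cannot be told apart.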

How the data were processed

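The deposited values are 1 number per gene model and sample, read as FPKM because the header names no unit and the decimals sum to different totals. Per the submitters' processing notes the authors used HISAT2 and StringTie, without versions. No coordinates are printed, since build and annotation were not given in the sources used here, and strand is not stated, so overlapping and antisense genes cannot be told apart. Gene names come from the authors' protein matches, and 4570 of the 19476 models had none. All value columns were used. Gene order was compared with RefSeq's table for the assembly NDDB_SH_1, which holds 35 of the 44 names. Sequences were not used, and the motif description planned for promoters was not made.

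The 11064 models that reached 1 FPKM in 3 or more samples were tested with limma 3.58.1 in R 4.3.3 on log2(FPKM + 1), with a mean-variance trend, two-sided, with Benjamini-Hochberg adjustment over all of them and without a replicate block. On simulated data built from the same 11064 models for the same comparison, this test recovered 38% of 50 models changed by 1.5-fold, 82% at 2-fold, 100% at 4-fold and 98% at 8-fold. The whole simulation gave 9 false calls. Its changed models, 50 at each fold and all upward, were far fewer than the 2958 called in the data, so recovery there could differ. Its noise was drawn for each model independently, so the 9 false calls do not estimate the number among the calls in the data. Summaries and plots were made in Python 3.11.15.

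Replicate numbers were not taken as pairs: the deviations of same-numbered samples from their group means correlated at 0.18, 0.29 and -0.08 for numbers 1, 2 and 3, over all tested models. Over the tested interferon genes alone these correlations were 0.39, -0.08 and 0.20.

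The genes and lists were chosen with earlier results of these data known. Named were the called genes, up to 3 further abundant genes per role, up to 4 called models per other list and FABP4. TYK2, UBA7, GBP1's second model and the remaining low genes were named once their values had been seen. The settings varied were pseudocounts, filters and scalings, together with a replicate block, a robust variance model, summed models, and libraries left out; leaving out a replicate number in both groups was added afterwards.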

Additional observations from a re-analysis of the deposited data

How the results depend on the processing

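The number of interferon genes called higher, 8, was 6 to 8 with other pseudocounts, scalings, a robust variance model or summed models, and the 2 called lower were 2 or 3. Without a minimum 3 were higher and 0 lower (limma; at an unadjusted p under 0.05 with the minimum 10 and 3), and with a minimum of 5 FPKM, where 13 were tested, 4 and 1. With the replicate block 11 were higher and 2 lower, the added calls being DTX3L, EIF2AK2 and PARP14 (limma adjusted p = 0.0493, 0.0354 and 0.0366), and of the other pathway genes named NLRX1 and NLRC5 were lost (0.0537 and 0.0517), while over all models 2061 were higher and 1275 lower. Leaving out 1 library gave 2 to 11 higher and 0 to 2 lower, and over all models 991 to 1974 higher and 618 to 1445 lower (1827 and 1131 with all). Without replicate 1, 2 or 3 of both groups, an alternative chosen after seeing the data, 9, 3 and 1 were higher and 1, 1 and 0 lower. Over all models 1396 were higher and 903 lower without number 1, 825 and 496 without number 2, and 312 and 203 without number 3. Without number 3, 23 of the interferon genes were tested. Of 461 values of the 25 genes under these settings, 18 turned direction, none of a called gene. IFIT3 was at -0.026, -0.072 and -0.048 with TMM, quantile and median-of-ratios scaling. With 1 library left out the log2 changes ranged from -0.0069 to 0.032 for IFIT3, -0.17 to 0.029 for IFIT5, -0.19 to 0.13 for IFNAR1, -0.010 to 0.50 for OAS2, -0.047 to 0.16 for SP110 and -0.093 to 0.24 for STAT2. Without a replicate number in both groups IFIT3 was at -0.00012 (number 3), IFNAR1 at 0.016 (number 1), SP110 at -0.090 (number 2) and STAT2 at -0.16 and -0.089 (numbers 1 and 3). The call of IFNAR2 was lost without replicate 3 of both groups (limma adjusted p = 0.0901), where 1 gene was called. The cause was not tested. Depth is unknown, and genes under 1 FPKM are the least certain.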
